A study of Mus musculus with 2 samples.

Results

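Mir219a-1, Mir219a-2 and Mir338 are 3 miRNA genes known from the differentiation of oligodendrocytes, the myelinating glia of the central nervous system. They were chosen by symbol among the 1973 miRNA genes counted in a microRNA-seq profile of the embryonic mouse face, and all 3 were found. The choice was made with results of these data known, in which the level of Mir219a-2 differed between the libraries, so levels and ratios of the 3 genes are given as a description with no test. The tissue was the facial prominence of healthy embryos of strain B6NCrl at embryonic day 10.5, with males and females pooled and no mutation named in the labels. The single group had 2 biological replicates. Replicate 2 pooled 51 embryos and replicate 1 pooled 69. No treatment, mutation or second stage was compared, so the comparisons are between the genes and between the pools. Each library is 1 pool, and a difference between the pools has no replicate check.

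A miRNA is cut from a hairpin transcript, and either arm of the hairpin can give a mature strand. The seed near the 5′ end of the mature strand pairs with target mRNAs and lowers their output. In the mouse central nervous system, miR-219 and miR-338 are abundant in oligodendrocytes and promote the exit of oligodendrocyte precursors from the cell cycle, with Pdgfra, Sox6 and Hes5 among the targets described for miR-219. Oligodendrocytes are not a cell type of the facial prominences. The prominences consist mainly of mesenchyme, much of it from the neural crest, under a covering epithelium, and the crest also gives the Schwann cells of the cranial nerves. Protein-coding markers of glia were not measured, so the glial label could not be checked in these libraries and the genes are called by their symbols.

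The mature strands show which reads can be assigned to a gene. They are printed from RefSeq (GRCm38.p6, the build of mm10), 5′ to 3′, with the seed (bases 2 to 8) in capitals.
mmu-miR-219a-5p, from Mir219a-2 and from Mir219a-1: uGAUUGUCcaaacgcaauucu
mmu-miR-219a-1-3p, from Mir219a-1: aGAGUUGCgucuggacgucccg
mmu-miR-338-5p, from Mir338: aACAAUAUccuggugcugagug
mmu-miR-338-3p, from Mir338: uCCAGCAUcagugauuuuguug
The 4 mature strands carry 4 different seeds, so Mir338 shares no seed with either Mir219a gene. Among the 1679 mature miRNA names in the same table, 0 others had any of these seeds. Mir219a-2 and Mir219a-1 share the mature 5′ strand, all 21 bases of it.

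The 3′ arms of the Mir219a hairpins differ. The best ungapped placement of mmu-miR-219a-1-3p on the Mir219a-2 hairpin covered bases 62 to 83 of that hairpin. Bases that differ are in capitals, and the pair is shown because a read of this arm can be assigned to 1 locus.
mmu-miR-219a-1-3p: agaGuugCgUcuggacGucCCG
aligned stretch of the Mir219a-2 hairpin: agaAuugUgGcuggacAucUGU
Of 22 bases, 15 were identical (68.2%), and the longest identical run was 6 bases. The substitutions were G4A, C8U, U10G, G17A, C20U, C21G and G22U, with positions counted from 1 at the 5′ end of mmu-miR-219a-1-3p, its base first and that of the Mir219a-2 hairpin last. G4A and C8U lie in the seed.

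Over whole hairpins, sharing was limited to the 5′ arm. Of the 78 windows of 20 bases in the Mir219a-2 hairpin, 3 occurred at the other Mir219a locus, and of the 91 windows in Mir219a-1 the same number, 3. The shared stretch was 22 bases long, bases 18 to 39 of Mir219a-2 and bases 20 to 41 of Mir219a-1, which is the mature 5′ strand and 1 base before it. None of the 79 windows of Mir338 was shared with another hairpin of the table. Reads that mapped to several places were set apart in the deposited tables and are in no gene's count. They were 25.9% of all reads in replicate 2 and 27.6% in replicate 1. A read that is exactly the mature 5′ strand fits both Mir219a loci, so the counts below hold only reads that the aligner placed at 1 locus. The tables do not split a gene's count by arm.

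**Figure D1:**
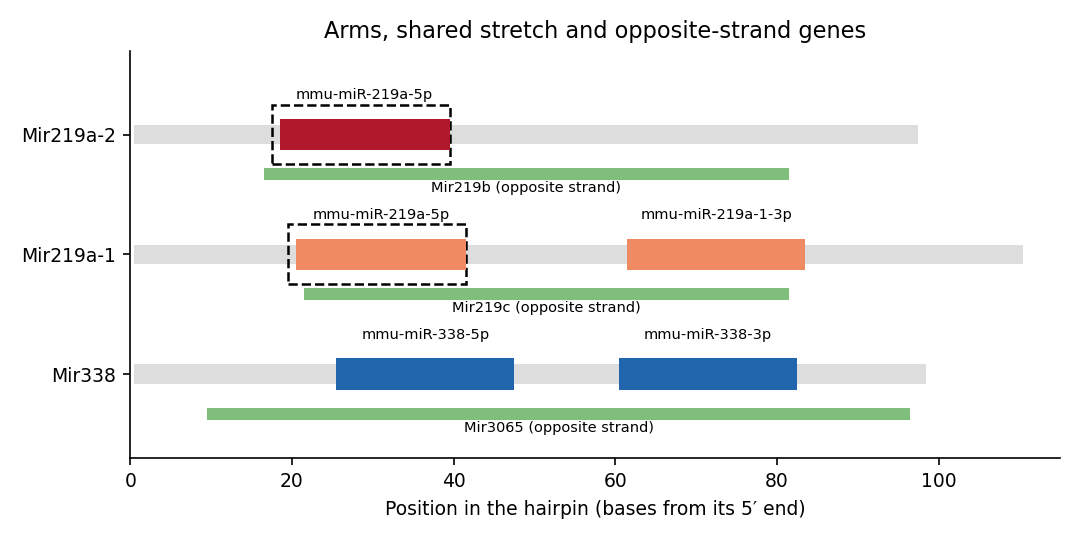
Each grey bar is a hairpin from its 5′ end (x axis, bases), with the mature strands listed by RefSeq in colour, the stretch shared between the Mir219a loci in a dashed box and the opposite-strand miRNA gene in green. The dashed boxes cover the 5′ arm of both Mir219a hairpins, bases 18 to 39 in Mir219a-2 and 20 to 41 in Mir219a-1, and Mir338 has none.

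The genes lie on 3 chromosomes, each on the minus strand and each with an annotated miRNA gene on the opposite strand (mm10, symbols and positions from GENCODE M21). Mir219a-2 (ENSMUSG00000065485.1) is at chr2:29845631-29845727, between genes, 629 bases from Urm1, which encodes a ubiquitin-like modifier. Mir219a-1 (ENSMUSG00000065555.1) is at chr17:34024983-34025092, overlapping an exon of the long non-coding RNA Gm26940 and 303 bases from Ring1, which encodes a Polycomb protein. Mir338 (ENSMUSG00000065600.1) is at chr11:120014765-120014862, in an intron of Aatk, a kinase gene known from neurons, on the same strand. No other miRNA gene of the tables was near any of them, the nearest being 53.3 kb from Mir338, 138 kb from Mir219a-1 and 150 kb from Mir219a-2. The 3 genes are therefore separate loci, and none is a member of a cluster with another.

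The libraries held 3517226 counts on the strand of a miRNA gene in replicate 2 and 2853511 in replicate 1. Levels are given as counts and as CPM, the count scaled to a library total of 1000000, with exact 95% Poisson intervals for counting error. PCR copies of a molecule are counted as separate reads, so the true error is larger. The SD is over the 2 libraries. Small RNA libraries favour some sequences, so a difference between genes is a difference in reads.

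Mir219a-2 stood highest of the 3 genes in both pools and was the one whose level differed most between them. It had 7798 counts in replicate 2, or 2217 CPM (2168 to 2267), against 968 counts in replicate 1, or 339 CPM (318 to 361). Its mean was 1278 ± 1328 CPM (SD, n = 2), a spread larger than the mean itself. By level it ranked 69 of 1973 genes in replicate 2 and 150 in replicate 1.

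Mir219a-1, the other source of the same 5′ strand, was also higher in replicate 2, by less. It had 1772 counts in replicate 2, or 504 CPM (481 to 528), against 854 counts in replicate 1, or 299 CPM (280 to 320). The mean was 402 ± 145 CPM (SD, n = 2), and the gene ranked 128 in replicate 2 and 154 in replicate 1. Its counting intervals in the pools did not overlap, as for Mir219a-2.

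Mir338 was low in both pools. It had 122 counts in replicate 2, or 34.7 CPM (28.8 to 41.4), against 125 counts in replicate 1, or 43.8 CPM (36.5 to 52.2). The mean was 39.2 ± 6.45 CPM (SD, n = 2), with ranks of 255 in replicate 2 and 248 in replicate 1. The counting intervals of the pools overlapped. Both libraries were well above the level that a count of 0 allows (3 counts, 0.853 CPM in replicate 2 and 1.05 CPM in replicate 1), so the gene was detected in each.

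**Figure D2:**
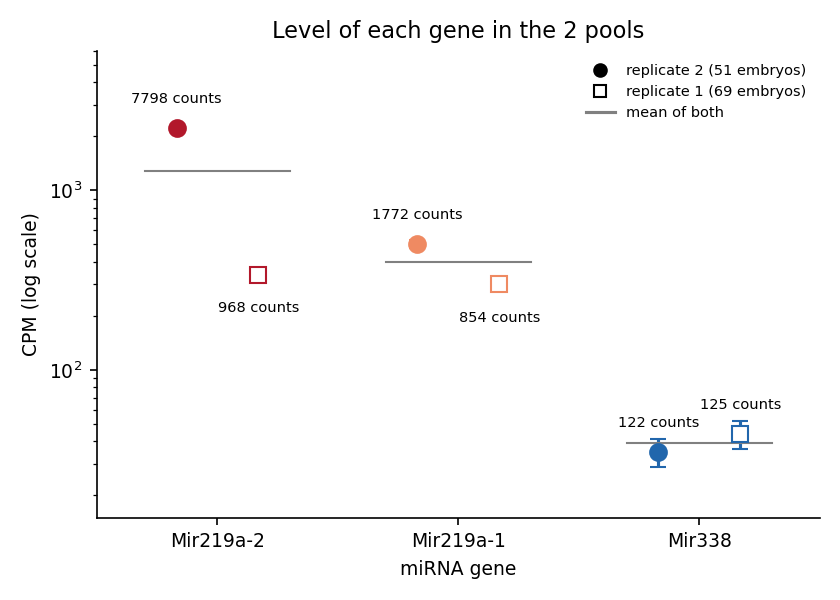
The y axis is CPM on a log scale for each gene, with replicate 2 as filled circles, replicate 1 as open squares, exact 95% Poisson intervals as bars (hidden by the larger points) and the mean of both libraries as a grey line. Mir219a-2 is at 2217 CPM in replicate 2 and 339 CPM in replicate 1, while Mir338 is at 34.7 CPM in replicate 2 against 43.8 CPM in replicate 1.

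The order Mir219a-2, Mir219a-1, Mir338 was the same in both libraries, but not every step in it exceeded the spread. Ratios of counts within a library do not depend on the library total. Mir219a-2 had 4.40 times the counts of Mir219a-1 in replicate 2 (exact 95% interval 4.18 to 4.64) and 1.13 times in replicate 1 (1.03 to 1.24). As means over the libraries the Mir219a genes did not differ beyond their spread, because the ratio between the pools for Mir219a-2 was larger than the ratio between the genes. Mir338 was separated from both in each pool. Mir219a-1 had 14.5 times its counts in replicate 2 (12.1 to 17.6) and 6.83 times in replicate 1 (5.66 to 8.31).

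The split between the Mir219a loci thus differed between the pools. Mir219a-2 gave 81.5% of the locus-specific Mir219a counts in replicate 2 and 53.1% in replicate 1. Together the loci had 2721 CPM in replicate 2 and 639 CPM in replicate 1, which is 0.272% of all counts in replicate 2 and 0.0639% in replicate 1. Of the 2082 CPM by which replicate 2 exceeded replicate 1, Mir219a-2 accounted for 1878 CPM (90.2%) and Mir219a-1 for 205 CPM (9.82%). A larger number of cells expressing a gene and more RNA of that gene per cell cannot be told apart in pooled tissue.

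Ratios between the pools are replicate 2 over replicate 1, on the log2 scale of CPM + 0.5, with exact 95% intervals from the counts that have no pseudocount. The log2 ratio was 2.71 for Mir219a-2 (2.61 to 2.81), a 6.54-fold higher CPM in replicate 2 (6.11 to 6.99). It was 0.75 for Mir219a-1 (0.63 to 0.87), a 1.68-fold higher CPM in replicate 2 (1.55 to 1.83). For Mir338 it was -0.33 (-0.71 to 0.03), an interval that includes equality. Both Mir219a genes were thus higher in replicate 2, while no direction is given for Mir338.

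Most miRNA genes were far closer between the pools. Over the 320 genes averaging 10 CPM or more, the median log2 ratio was 0.02 with an SD of 0.39, and 9 genes (2.81%) were at least 2-fold apart. Of those, 3 (0.938%) were higher in replicate 2 and 6 (1.88%) were lower. Mir219a-2 was the only one of the 3 genes past 2-fold, a value known when it was chosen, so nothing is read from that count. It had the highest log2 ratio of the 320 genes and the one farthest from 0. Mir219a-1 ranked 8 from the highest ratio and 16 by distance from 0. Mir338 ranked 276 from the highest and 90 by distance from 0, below the lower quartile of -0.17. At the low end was Mir7b, a miRNA of endocrine and neuronal tissue, with a log2 ratio of -1.37. Mir335, the highest gene by level, had 157233 CPM in replicate 2 and 150559 CPM in replicate 1, a log2 ratio of 0.06.

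**Figure D3:**
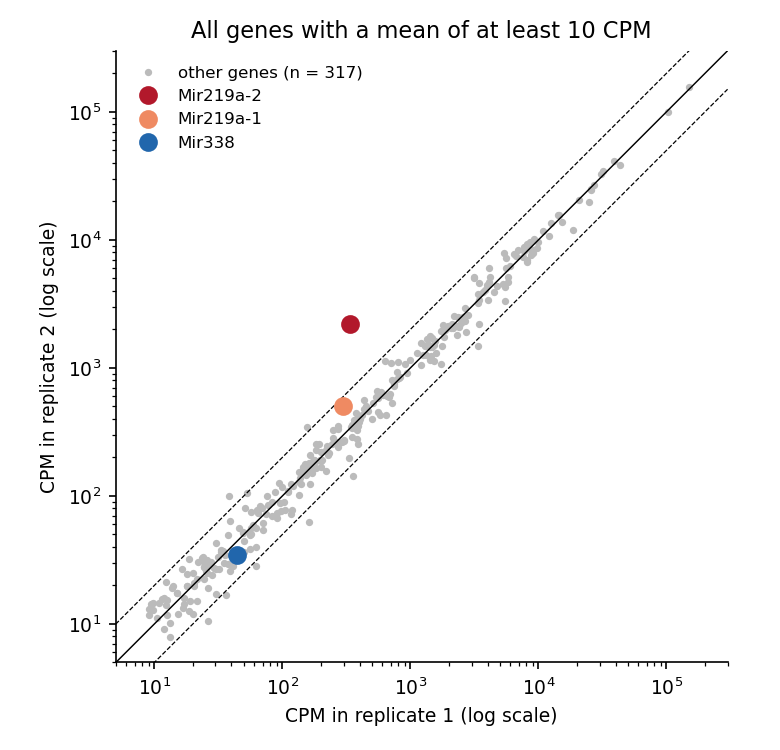
Each point is 1 of the 320 genes averaging 10 CPM or more, with CPM in replicate 2 on the y axis and CPM in replicate 1 on the x axis, both on log scales. The solid line is equality and the dashed lines are 2-fold. Mir219a-2 lies above the upper dashed line, at 2217 CPM in replicate 2 against 339 CPM in replicate 1, and Mir219a-1 and Mir338 lie between the dashed lines.

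Among the genes averaging 10 CPM or more, no other came within 1.32 of the log2 ratio of Mir219a-2. With likeness taken as the difference between log2 ratios over the 2 libraries, its nearest genes were Mir208b, a miRNA of cardiac muscle, at 1.38, Mir10a, a miRNA of the Hox clusters, at 1.15, and Mir294 of the early embryo Mir290 cluster at 0.99. They lay 1.32, 1.55 and 1.72 below it on the log2 scale. Mir208b had 100 CPM in replicate 2 and 38.2 CPM in replicate 1, and Mir10a had 347 CPM in replicate 2 against 156 CPM in replicate 1. The nearest to Mir219a-1 were Gm24572, Mir7654 and Mir5126, all within 0.04, and the nearest to Mir338 were Mir5113, Mir346 and Mir30e, 0.011, 0.013 and 0.014 away. Likeness over 2 libraries is weak, since many genes have ratios close to those of Mir219a-1 and Mir338.

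Genes of similar mean level to Mir219a-2 had close values in the pools. Directly above it by mean were Mir107 with 1162 CPM in replicate 2 and 1423 CPM in replicate 1, and Mir25 with 1254 CPM in replicate 2 and 1320 CPM in replicate 1. Directly below were Mir434 with 1267 CPM in replicate 2 and 1264 CPM in replicate 1, and Mir540 with 1317 CPM in replicate 2 against 1132 CPM in replicate 1. The mean of 1278 CPM for Mir219a-2 is therefore a level that it had in neither pool, above all 4 neighbours in replicate 2 and below all 4 in replicate 1. The neighbours of Mir219a-1 were Mir325, Mir204, Mir153 and Mir669l, with means from 399 to 409 CPM, and of these Mir325 had the largest log2 ratio, 0.25. The neighbours of Mir338 were Mir216b, Mir670, Mir144 and Gm26117, with means from 36.4 to 43.5 CPM.

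The dissected prominences could hold neural tissue, so miRNAs of neurons and neural progenitors were set beside the Mir219a genes. The neural list (the Mir9, Mir124 and Mir128 genes, Mir137 and Mir153) had 9 of 10 members matched, of which 5 reached 10 counts in both libraries. The Mir219a loci had 2721 CPM in replicate 2 but 639 CPM in replicate 1, beside neural sums of 1126 CPM in replicate 2 against 1187 CPM in replicate 1. The Mir219a sum was therefore above the neural sum in replicate 2 and below it in replicate 1. Among members averaging 10 CPM or more, 2 neural genes had a higher and 3 a lower CPM in replicate 2, with a median log2 ratio of -0.20, and 0 of 5 were 2-fold apart, where 2.81% of all genes were.

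Within that list, Mir137, a miRNA of neurons and neural progenitors, had 593 CPM in replicate 2 and 680 CPM in replicate 1. Mir153, known from brain, had 412 CPM in replicate 2 and 387 CPM in replicate 1, close to the level of Mir219a-1. Mir128-1, enriched in brain, had 73.4 CPM in replicate 2 against 64.5 CPM in replicate 1. The log2 ratios were -0.20 for Mir137, 0.09 for Mir153 and 0.18 for Mir128-1. Mir9-3, a miRNA of neural progenitors, had 28.4 CPM in replicate 2 and 41.0 CPM in replicate 1, a log2 ratio of -0.52. Mir128-2 had 10.2 CPM in replicate 2 against 13.3 CPM in replicate 1, a log2 ratio of -0.36. The Mir124 genes, which mark neurons, were low, with at most 4.55 CPM in either library. Mir124a-2 had 16 counts in replicate 2 and 3 in replicate 1, Mir124a-3 had 12 counts in replicate 2 and 0 in replicate 1, and Mir124a-1 had 1 count in replicate 2 and 0 in replicate 1. All of these few Mir124a counts were higher in replicate 2. These genes averaged under 10 CPM, so the median and the 2-fold count above leave them out. Of the 9 neural genes, 7 hold 20 or more bases that recur in another miRNA hairpin, as do 923 of all 1894 genes with a hairpin sequence. Both counts take either orientation and include hairpins that overlap on opposite strands. With overlapping hairpins left out, 128 of 1005 miRNA genes of RefSeq shared a 20-base stretch. Reads common to copies at different places are missing from their counts. The part of neural tissue in the Mir219a difference was not tested.

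Other miRNAs known from myelinating glia were also set beside the Mir219a genes. No gene averaging 10 CPM or more came within 1.32 of the log2 ratio of Mir219a-2, so nothing is read from its absence in this list. The list held Mir138-1 and Mir138-2, known from oligodendrocyte differentiation, Mir23a and Mir32, known from myelin gene regulation, and Mir212, known from oligodendrocyte precursors. All 5 had at least 10 counts in each library. They are not specific to glia, and Mir23a is expressed widely. Of the 4 that averaged 10 CPM or more, 2 had a higher and 2 a lower CPM in replicate 2, with a median log2 ratio of -0.14, and 0 were 2-fold apart, where 2.81% of all genes were. Mir23a had 4683 CPM in replicate 2 and 4117 CPM in replicate 1, and Mir32 had 394 CPM in replicate 2 and 360 CPM in replicate 1. Mir138-1 had 78.2 CPM in replicate 2 and 118 CPM in replicate 1, and Mir138-2 had 101.5 CPM in replicate 2 against 135 CPM in replicate 1. These 2 genes had lower values in replicate 2. The part of myelinating glia in the Mir219a difference was not tested. Mir212 had 24 counts in replicate 2 and 17 in replicate 1.

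Markers of the other tissues of the face were summed for each pool. Of 11 such genes averaging 10 CPM or more, 2 had a higher and 9 a lower CPM in replicate 2, beside 169 higher and 151 lower of all 320 genes. Several of the 11 are close neighbours, as Mir183, Mir182 and Mir96 on chromosome 6 and Mir451a and Mir144 on chromosome 11. They are therefore not independent of each other. The sensory placode list (Mir183, Mir182 and Mir96) had a sum of 27292 CPM in replicate 2 against 36062 CPM in replicate 1. For the surface epithelium list (Mir205 and Mir203) the sum was 10905 CPM in replicate 2 against 13091 CPM in replicate 1. For the mesenchyme list (Mir214 and the Mir199a genes) it was 14002 CPM in replicate 2 against 15465 CPM in replicate 1. All 3 sums were lower in replicate 2. The mesenchyme sum rested mostly on Mir214, with a log2 ratio of -0.15. Mir199a-2 was higher in replicate 2 (192 CPM against 177 CPM in replicate 1), and Mir199a-1 was lower (7.96 CPM against 13.3 CPM in replicate 1). The blood list, with 3 of 4 genes matched, had 433 CPM in replicate 2 against 645 CPM in replicate 1. Of all the marker genes in these 4 lists averaging 10 CPM or more, Mir451a of red cells was the only one 2-fold apart (1 of 11, where 2.81% of all genes were), with a log2 ratio of -1.32. The part of tissue composition in the difference of Mir219a-2 was not tested.

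**Figure D4:**
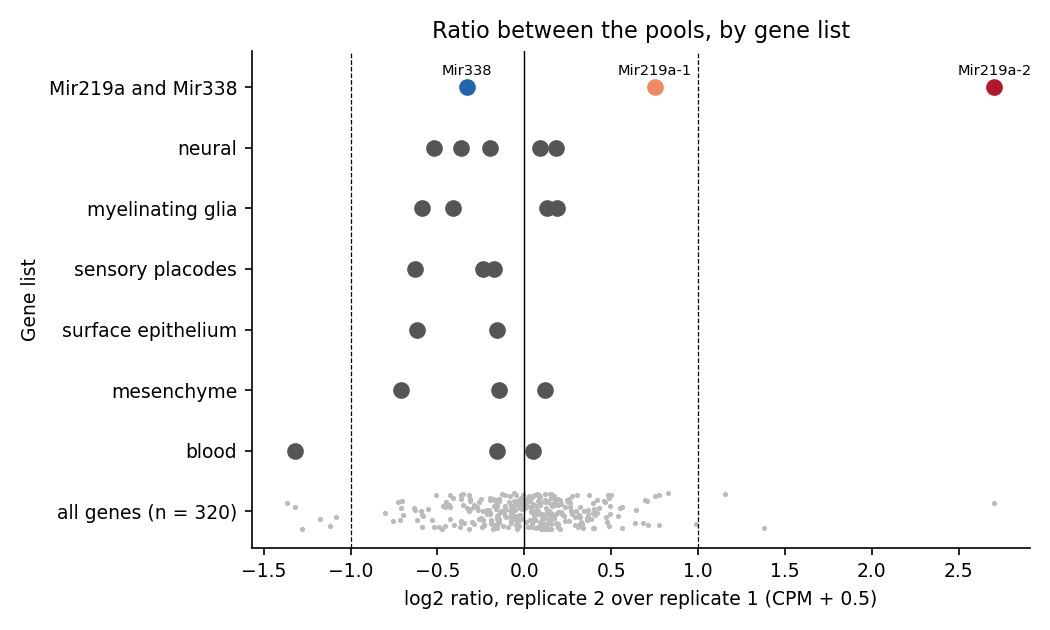
The x axis is the log2 ratio of replicate 2 over replicate 1 (CPM + 0.5), with 1 point per gene averaging 10 CPM or more, by gene list (y axis), and all 320 genes in the lowest row, spread vertically for display. The dashed lines are 2-fold. Mir219a-2 is at 2.71 and Mir219a-1 at 0.75, while the 5 neural genes lie from -0.52 to 0.18 and the 4 myelinating glia genes from -0.59 to 0.19.

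The reads at all 3 genes came almost wholly from the strand of the gene. Each hairpin overlaps an annotated miRNA gene on the opposite strand: Mir219b at Mir219a-2, Mir219c at Mir219a-1 and Mir3065 at Mir338. Each partner's hairpin is the exact reverse complement of a stretch of the gene's own, over 65, 60 and 87 bases. The partners were not among the genes analysed here, and reads from them would be counted opposite the 3 genes. RefSeq lists these mature strands for them, shown with the seed in capitals because the seeds differ from those above.
mmu-miR-219b-5p: aGAUGUCCagccacaauucucg
mmu-miR-219b-3p: aGAAUUGCguuuggacaaucagu
mmu-miR-219c-5p: gGACGUCCagacgcaacucucg
mmu-miR-219c-3p: cGAGAAUUgcguuuggacaauc
mmu-miR-3065-5p: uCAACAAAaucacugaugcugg

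Opposite Mir219a-2 there were 0 reads of 7798 in replicate 2 (exact Clopper-Pearson 95% interval 0% to 0.0473%) and 2 of 970 in replicate 1 (0.206%, 0.0250% to 0.743%). Opposite Mir338 there were 0 reads of 122 in replicate 2 (0% to 2.98%) and 2 of 127 in replicate 1 (1.57%, 0.191% to 5.57%). Mir219a-1 was the only one of the 3 with opposite reads in both pools, 6 of 1778 in replicate 2 (0.337%, 0.124% to 0.733%) and 9 of 863 in replicate 1 (1.04%, 0.478% to 1.97%). Over all genes the opposite strand held 2.44% of gene reads in replicate 2 and 2.43% in replicate 1. Among the 376 genes with at least 10 counts in each library, 92.0% had 0 opposite reads in replicate 2 and 93.1% in replicate 1. These shares leave out genes with few counts on their own strand but many on the opposite strand. All reads counted at Mir219a-2 in replicate 2 were thus on its own strand.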

How the data were processed

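The labels describe total RNA of pooled facial prominences and an insert size below 30 nt, and give no protocol for extraction or library preparation. The authors deposited 1 table of raw read counts per miRNA gene for each library, on mm10 and annotation M4 of GENCODE, as stated in the accompanying text files. The aligner is not given in the sources used here. Each gene has a count on either strand, on its own strand and on the opposite strand, and the first is the sum of the others in all 1973 genes. Library sizes leave out the 4 summary lines, which belong to no gene. These lines hold 24.1% (unmapped), 25.9% (several places) and 9.32% (outside genes) of the reads in replicate 2, against 21.6%, 27.6% and 9.01% in replicate 1.

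Counts on the gene's strand were scaled to CPM over all genes. Symbols, positions and hosts came from GENCODE M21 (GRCm38) by identifier without version, with 1894 of 1973 matched. Mature and hairpin sequences came from RefSeq (GRCm38.p6), in which all 3 genes matched. Ratios used a pseudocount of 0.5 CPM. The intervals were exact Poisson and Clopper-Pearson intervals at 95%, which cover counting error only. No contrast was fitted, because there is 1 group. TMM factors of edgeR 4.0.16 (0.993 in replicate 2, 1.01 in replicate 1) and size factors of DESeq2 1.42.0 were alternatives, with scipy 1.17.1 for intervals. The ratio and interval code was tested on simulated counts.

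The genes and lists were chosen with earlier results of these data known. Beyond the 3 genes, the rule names the genes that overlap them, the 2 genes above and below each in mean CPM, the 3 nearest in log2 ratio, list members with 10 counts in each library, the highest gene and those with the highest and lowest log2 ratio. The Mir124a genes below that count, and Mir451a, were named after their values were seen. Mir9-1 and Mir142 had no matched gene and were not analysed here.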

Additional observations from a re-analysis of the deposited data

Results flagged for a closer look

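Reads on the strand opposite Mir219a-1, outside the measurement used for levels, were above the 3 counts that a count of 0 allows in both libraries. There were 6 in replicate 2 (1.71 CPM) and 9 in replicate 1 (3.15 CPM), where the annotated gene on that strand is Mir219c. Such reads were at or under 3 counts opposite Mir219a-2 and Mir338 in both libraries.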

How the results depend on the processing

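With all reads as the total, the mean level was 522 CPM for Mir219a-2, 165 CPM for Mir219a-1, 687 CPM for the Mir219a sum and 16.2 CPM for Mir338. With gene and multi-mapping reads as the total it was 780, 244, 1024 and 23.8 CPM, and both sets follow from the larger totals. The alternatives for the log2 ratios reuse nearly the same counts, so their closeness says nothing of stability between pools. The sign for Mir338 is not read as a direction. All 28 alternative log2 ratios of the 3 genes and the Mir219a sum stayed within the reported counting interval, with 0 changes of sign. They ranged with the totals, the counted strand, the size factors and the pseudocount from 2.67 to 2.73 for Mir219a-2, from 0.71 to 0.77 for Mir219a-1 and from -0.36 to -0.30 for Mir338. The share of genes at least 2-fold apart was 12.8% (95 of 741) with no filter on low values and 10.3% (33 of 320) at 1.5-fold. Without members that share a 20-base stretch, the neural list summed to 1036 CPM and the myelinating glia list to 383 CPM, which then rested on Mir32 and Mir212. Leaving out either replicate leaves the other's value, which says nothing of stability, and gave 339 to 2217 CPM for Mir219a-2, 299 to 504 CPM for Mir219a-1, 34.7 to 43.8 CPM for Mir338, 639 to 2721 CPM for the Mir219a sum, 1126 to 1187 CPM for the neural list and 4736 to 5263 CPM for the myelinating glia list. The level of Mir219a-2 is thus set by which pool is taken. No paired analysis was possible because the series holds 1 group. Reads shared by the Mir219a loci are missing from both counts, and Mir338 rests on 122 counts in replicate 2 and 125 in replicate 1.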
